A study of Homo sapiens with 4 samples.

Results

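The sirtuins other than SIRT1 are SIRT2, SIRT3, SIRT4, SIRT5, SIRT6 and SIRT7. They were taken by gene symbol from the expression tables, which list all 6 of them among 16878 genes. Total RNA was sequenced from PANC-1 cells, an established human pancreatic ductal carcinoma line, 48 h after transfection. The 2 siSIRT1 libraries came from cells given an siRNA against SIRT1 and the 2 Control libraries from cells given a control whose sequence the labels do not state. The knockdown was transient and was made in 1 cell line, and nothing states that libraries of a group came from separate cultures, so the p-values measure only the spread between these libraries, which may be technical. The comparison asked whether the transcripts of the other sirtuins changed when SIRT1 was reduced, and whether this differed by the compartment in which each protein works.

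Sirtuins remove acetyl and longer acyl groups from lysine, or transfer ADP-ribose, and use up NAD+ in doing so. SIRT6 and SIRT7 work mainly in the nucleus, where SIRT6 acts on chromatin and DNA repair and SIRT7 is concentrated in the nucleolus, the site of ribosomal RNA synthesis. SIRT2 is mainly cytosolic and deacetylates tubulin and metabolic enzymes. SIRT3, SIRT4 and SIRT5 are mitochondrial, with SIRT3 the main deacetylase there, SIRT4 acting mostly on other acyl groups and SIRT5 removing succinyl, malonyl and glutaryl groups. SIRT1, the knockdown target, is mainly nuclear.

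The SIRT1 siRNA is shown first, since any direct action on another sirtuin would depend on matching letters. The sense strand is the single sequence that the study lists for siSIRT1, taken here to be the one used in these libraries. The capitals of the antisense strand mark bases 2 to 8, the seed, which pairs with the site CCTTTGC in a transcript. The other lines give the stretch of 19 bases in each sirtuin's canonical transcript (GENCODE release 44 mapped to GRCh37) with the most letters equal to the siRNA, in DNA letters of the transcript strand, with equal letters in capitals. For SIRT2 the stretch shown is 1 of 2 that match equally well, and for SIRT4 it is 1 of 5.
siRNA sense strand: GUGUCAUGGUUCCUUUGCA
siRNA antisense strand: uGCAAAGGaaccaugacac
SIRT1: GTGTCATGGTTCCTTTGCA
SIRT2: GTacCATctTcCCTaccCA
SIRT3: agcTCATGGaaCCTTTGCc
SIRT4: GTGTgAaGtgTCCgTaGag
SIRT5: GatTCAgGtTTCaTTTcCA
SIRT6: tgGTCATcGTcaaccTGCA
SIRT7: GTGTCgcGcaTCCTgaGgA

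The siRNA matched SIRT1 at all 19 bases, across the junction of exons 5 and 6 of 9 (chr10:69666687-69666694 and chr10:69667803-69667813, plus strand). Among 19091 canonical transcripts of protein-coding genes, 1 held the whole site. The closest stretches in the other sirtuins matched at 13 of 19 bases in SIRT3 and SIRT5, at 12 in SIRT7 and at 11 in SIRT2, SIRT4 and SIRT6. The SIRT3 stretch lies in coding exon 4 of 7 (chr11:230503-230521, minus strand) and includes the whole seed site. SIRT2 and SIRT5 each held 1 seed site elsewhere in the transcript, and SIRT4, SIRT6 and SIRT7 held none, while 26.3% of the canonical protein-coding transcripts held at least 1. A letter match of this kind is a description and does not show binding.

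The values are FPKM, sequenced fragments scaled to transcript length and to the number of mapped fragments, so that levels of different genes can be compared. From the steps between low values, depth was estimated at 8770000 to 9150000 fragments per library. Genes averaging 1 FPKM or more over the libraries were tested with limma on log2(FPKM + 1), and a gene was called at an adjusted p under 0.05 over the 12191 genes tested. In that test 4521 genes were called, or 37.1%, with 2930 higher in siSIRT1 (24% of the genes tested) and 1591 lower (13.1%). The calls numbered 2744 without Control replicate 1 and 2691 without Control replicate 2. The higher calls were 64.8% of all calls with the values as deposited, and between 46% (scaling to GAPDH) and 55.6% (equal FPKM sums) when libraries were rescaled or adjusted for GC content or length. The ductal keratins KRT8, KRT18 and KRT19 were at 312.82 FPKM or more in every library and KRT7 at 2.89 to 4.04 FPKM. KRT18 and KRT19 were called higher, and VIM, a mesenchymal filament gene also expected in PANC-1, fell by 0.53 on the log2 scale from a mean of 2123 to 1465 FPKM (adjusted p = 0.00126 by limma); its part in the sirtuin results was not tested. Of 5 markers of acinar, immune and endothelial cells present in the tables, PTPRC was the highest at 0.97 to 1.29 FPKM.

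SIRT1 was reduced in both libraries labelled siSIRT1. Control cells held 10.46 and 10.25 FPKM of it and siSIRT1 cells 1.8 and 2.05 FPKM, a mean of 18.6% of the Control level. The groups lay far apart, and the log2 fold change was -1.96 (SE 0.11, adjusted p = 1.33e-05 by limma). In bulk RNA, fewer cells with a transcript and less of it in each cell cannot be told apart, for SIRT1 and for every sirtuin below.

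Of the 6 other sirtuins, SIRT7 and SIRT2 rose, while SIRT3, SIRT5 and SIRT6 did not pass the test and SIRT4 was too low to be tested. SIRT7, nuclear, rose 1.39-fold and SIRT2, cytosolic, 1.22-fold, on the log2(FPKM + 1) scale used for every fold below. No mitochondrial sirtuin was called in either direction by limma. With the values as deposited, the unadjusted p-values by limma were 0.424 for SIRT3 and 0.126 for SIRT5, and that of SIRT5 was smaller under some scalings given below. The 2 calls among the 5 members tested stand beside a background of 24% of all genes called higher, and a count this small beside that background is not a result about sirtuins as a group. The members tested had a median log2 fold change of 0.25, against 0.07 over all genes tested. By RT-qPCR and western blotting, the paper reports little change of the other sirtuins in PANC-1 cells with SIRT1 overexpressed or knocked down. Its text gives no values for those measurements, so their size cannot be set beside the folds here.

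**Figure D1:**
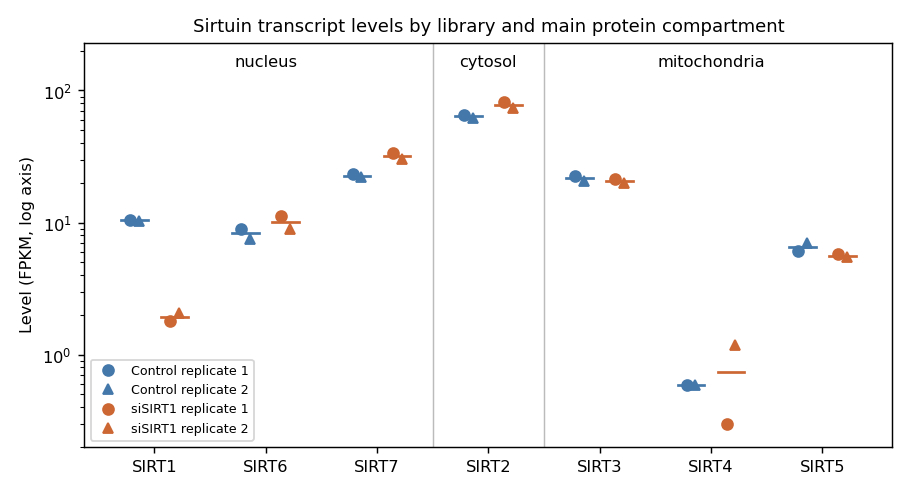
Level of each sirtuin transcript (FPKM, log axis) in the 2 Control libraries (blue) and the 2 siSIRT1 libraries (orange), ordered by the main compartment of the protein; circles are replicate 1, triangles replicate 2, and short lines the group means. SIRT1 falls from about 10 to 2 FPKM, both siSIRT1 points of SIRT7 and SIRT2 lie above their Control points, and the points of SIRT3, SIRT4 and SIRT6 overlap between groups.

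In the order of their Control levels, SIRT2 stood first at 63.59 ± 2.02 FPKM (SD, n = 2), followed by SIRT7 at 22.63 ± 0.841 and SIRT3 at 21.63 ± 1.48. SIRT7 and SIRT3 could not be separated in Control, since their values overlapped. SIRT6 followed at 8.285 ± 1.03 and SIRT5 at 6.52 ± 0.594, and SIRT4 was last at 0.59 FPKM in both libraries. After the knockdown the order was the same, but SIRT7 at 31.86 ± 2.31 FPKM and SIRT3 at 20.57 ± 1.07 FPKM no longer overlapped. SIRT2 lay above 93.6% to 94.8% of the 16878 genes in each library and SIRT4 above 19.8% to 29.1%.

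SIRT7 is a nucleolar deacetylase that takes part in RNA polymerase I transcription and, at some promoters, removes acetyl groups from histone H3 lysine 18. Its gene has 10 exons on the minus strand of chromosome 17 (GRCh37, chr17:79869815-79876052). The Control libraries held SIRT7 at 23.23 and 22.04 FPKM, and the siSIRT1 libraries at 33.49 and 30.23 FPKM. Both siSIRT1 libraries lay above both Control libraries, and the gap between the groups was wider than the gap within either. The log2 fold change was 0.47 with a 95% interval of 0.30 to 0.65, and the adjusted p was 0.0018 by limma. Its estimated reads, 341 and 332 in Control and 483 and 443 in siSIRT1, give a counting error of 4.55% to 5.49% in each library, less than the change. Only 10% of the genes tested had a larger log2 fold change.

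SIRT6 is a chromatin-bound deacetylase with roles in telomere upkeep, base excision repair and glucose metabolism. It lies on the minus strand of chromosome 19 (GRCh37, chr19:4174106-4182560, 8 exons). SIRT6 measured 9.01 and 7.56 FPKM in the Control libraries, against 11.21 and 8.96 FPKM after the knockdown. The lower siSIRT1 library was just under the higher Control library, so the groups overlapped. The log2 fold change was 0.25 with a 95% interval of -0.04 to 0.54 (adjusted p = 0.157 by limma), an interval that includes both no change and the value seen for SIRT7. SIRT6 rested on an estimated 105 to 149 reads per library, a counting error of 8.19% to 9.76%, and the table lists 9 transcripts for it, more than for any other sirtuin. Its log2 fold change ranged from 0.11 without siSIRT1 replicate 1 to 0.40 without siSIRT1 replicate 2, with 0.37 and 0.14 without Control replicate 1 and 2, so each library left out moved it.

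SIRT2 is a tubulin deacetylase that also acts on metabolic enzymes and on histone H4 lysine 16 during mitosis. Its gene lies on the minus strand of chromosome 19 (GRCh37, chr19:39369200-39390258, 16 exons). The Control libraries held SIRT2 at 65.02 and 62.16 FPKM, and the siSIRT1 libraries at 81.81 and 73.99 FPKM. The groups did not overlap, and the spread within siSIRT1 was wider than within Control. The log2 fold change was 0.29 with a 95% interval of 0.13 to 0.44, a fold of 1.22 (1.1 to 1.36), with an adjusted p of 0.011 by limma. Of the genes tested, 23.5% had a larger log2 fold change. The call was lost without Control replicate 1 (adjusted p = 0.0519) and without Control replicate 2 (adjusted p = 0.116), when the lone Control library is assumed to vary like the other group.

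SIRT3 deacetylates enzymes of the respiratory chain, fatty acid oxidation and antioxidant defence in the mitochondrial matrix. Its gene lies on the minus strand of chromosome 11 (GRCh37, chr11:215030-236342, 7 exons). SIRT3 measured 22.68 and 20.58 FPKM in the Control libraries, against 21.33 and 19.82 FPKM after the knockdown. The libraries of the groups interleaved. The log2 fold change was -0.07 (95% interval -0.25 to 0.12, adjusted p = 0.55 by limma). With the values as deposited, a fold below 0.839 or above 1.08 lay outside the interval. These limits depend on the scaling, since the interval was -0.38 to 0.03 under GAPDH scaling. With a replicate block and GC adjustment it was -0.32 to -0.01, and SIRT3 was still not called (adjusted p = 0.0819 by limma). Leaving out 1 library gave log2 fold changes from -0.14 (without Control replicate 2) to -0.001 (without Control replicate 1), where the sign means little. SIRT3 is the sirtuin whose closest stretch to the siRNA holds a seed site.

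SIRT4 acts as a lipoamidase and ADP-ribosyltransferase that lowers the activity of pyruvate dehydrogenase and glutamate dehydrogenase. The Control libraries held SIRT4 at 0.59 and 0.59 FPKM, and the siSIRT1 libraries at 0.3 and 1.18 FPKM. The siSIRT1 libraries lay on either side of Control. These levels correspond to about 6, 6, 3 and 12 reads, and the exact Poisson 95% intervals of 2.2 to 13.1 reads for each Control library and 6.2 to 21 reads for siSIRT1 replicate 2 overlapped. When the filter was left out, its log2 fold change was 0.08 with a 95% interval of -0.63 to 0.79 (adjusted p = 0.851 by limma), and no change of SIRT4 was detectable at this depth.

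SIRT5, which removes succinyl and malonyl groups from enzymes of the urea cycle and of intermediary metabolism, was the lowest mitochondrial member tested. Its gene lies on the plus strand of chromosome 6 (GRCh37, chr6:13574833-13615390, 10 exons). SIRT5 measured 6.1 and 6.94 FPKM in the Control libraries, against 5.73 and 5.45 FPKM after the knockdown. Both siSIRT1 libraries lay below both Control libraries, as for 25.2% of all genes tested, while 43.8% of genes had both siSIRT1 libraries above both Control libraries as SIRT2 and SIRT7 did. The log2 fold change was -0.19 with a 95% interval of -0.44 to 0.07 (adjusted p = 0.219 by limma), which did not pass the test. It was -0.27 and -0.11 without Control replicate 1 and 2, and -0.22 and -0.16 without siSIRT1 replicate 1 and 2.

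**Figure D2:**
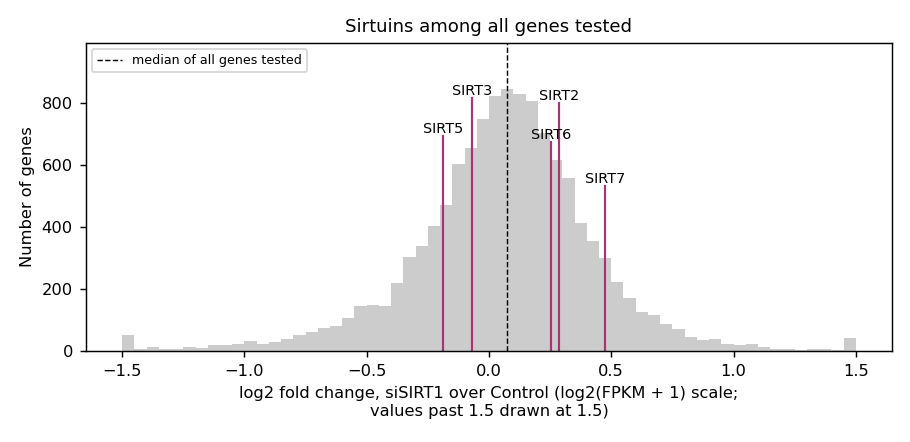
Number of genes at each log2 fold change of siSIRT1 over Control among the 12191 genes tested (grey bars, 0.05 per bar), with the 5 sirtuins tested as vertical lines and the median of all genes dashed; the height of a sirtuin line carries no value. SIRT5 and SIRT3 lie left of the median of 0.07, SIRT6 and SIRT2 lie at 0.25 and 0.29, and SIRT7 at 0.47 has 10% of genes to its right.

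The 7 scalings and adjustments changed the size of each change but the direction of none of the 5 sirtuins tested. With the deposited values the median of all genes was 0.07 on the log2 scale, and each of 5 rescalings brought it to between -0.02 and 0.02. SIRT7 was called higher under all 7 scalings and adjustments, with log2 fold changes of 0.35 to 0.41 and adjusted p of 0.00186 to 0.00753 by limma. SIRT2 was called higher under 5 of the 7, with log2 fold changes of 0.16 to 0.23. Its call was lost under median-of-ratios scaling (log2 fold change 0.20, adjusted p = 0.0779) and under GAPDH scaling (0.18, adjusted p = 0.0538). SIRT6 lay between 0.12 and 0.20, SIRT3 between -0.17 and -0.13, and SIRT5 between -0.28 and -0.23, and these were called under none of the 7. The share of all genes called higher was 18.7% under quantile normalization, 16.6% under median-of-ratios, 18.1% under upper-quartile, 18.9% under equal FPKM sums, 13.3% under GAPDH scaling, 18.9% after GC adjustment and 18.8% after length adjustment. GAPDH, the scaling gene, measured 1968.78 and 1918.76 FPKM in the Control libraries, against 2195.82 and 2006.2 FPKM after the knockdown. Its log2 fold change of 0.11 did not pass the test (adjusted p = 0.333 by limma). ACTB, whose protein was the study's loading control in western blots, rose by 0.36 on the log2 scale (adjusted p = 0.0148 by limma). That is more than SIRT2 or SIRT6 rose with the values as deposited. Scaling to ACTB was not run. By group means, ACTB in siSIRT1 was at 1.29 times its Control level, against 1.23 for SIRT2, 1.22 for SIRT6 and 1.41 for SIRT7. Relative to ACTB, the means of SIRT2 and SIRT6 would therefore be lower in siSIRT1, and that of SIRT7 higher.

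**Figure D3:**
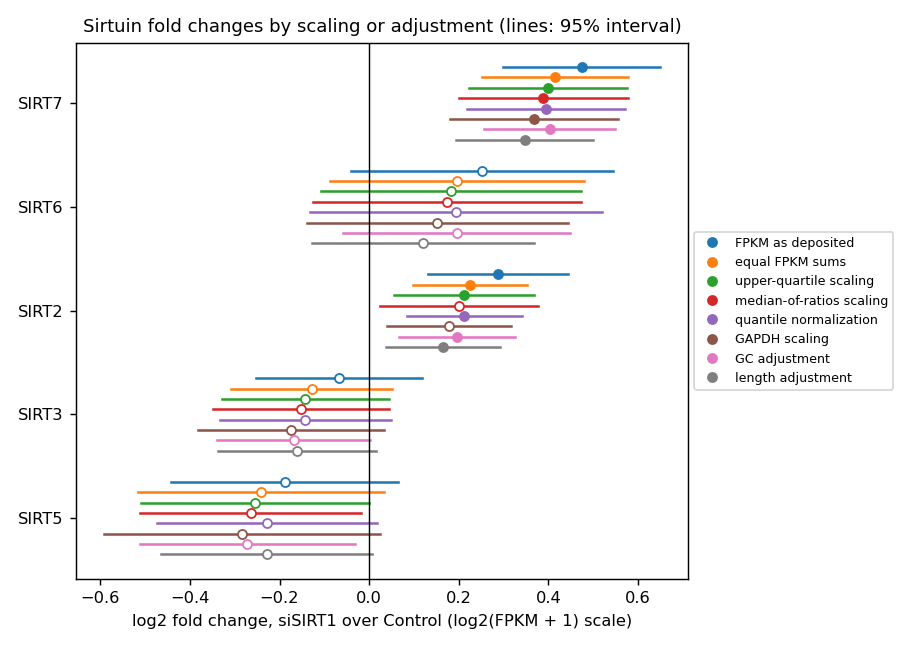
log2 fold change (siSIRT1 over Control) of the 5 sirtuins tested, with its 95% interval as a line, for FPKM as deposited and 7 rescalings or adjustments in colours; filled circles are called at an adjusted p under 0.05 and open circles are not. SIRT7 is filled throughout at 0.35 to 0.47, SIRT2 is open under median-of-ratios and GAPDH scaling, and no sirtuin's circles lie on both sides of 0. With FPKM as deposited, the intervals of SIRT6, SIRT3 and SIRT5 include 0. Under median-of-ratios scaling, upper-quartile scaling and GC adjustment, the interval of SIRT5 lies below 0.

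The GC content of the canonical transcripts ran in nearly the same order as the fold changes. It was 64.9% for SIRT6, 61.7% for SIRT7, 58.9% for SIRT2, 54.8% for SIRT3 and 48.3% for SIRT5. SIRT1, the knockdown target, was at 40.6%. Over all genes tested with a known GC content, the median log2 fold change was 0.05 at 40% or less. It was 0.07 between 40% and 45%, 0.08 between 45% and 50% (the range of SIRT5) and 0.09 between 50% and 55% (SIRT3). Between 55% and 60%, the range of SIRT2, it was 0.1. Between 60% and 65%, the range of SIRT7 and SIRT6, it was 0.06, and above 65% it was 0.07. After the adjustment for GC content SIRT7 was at 0.40 and SIRT2 at 0.20 (adjusted p = 0.0262 by limma), while SIRT5 was at -0.27 (adjusted p = 0.0738). Transcript length ran in the reverse order of GC content: 1600 bases for SIRT6, 1725 for SIRT7, 1862 for SIRT2, 2882 for SIRT3 and 4564 for SIRT5. After the adjustment for length SIRT7 was at 0.35, SIRT2 at 0.16, SIRT6 at 0.12, SIRT3 at -0.16 and SIRT5 at -0.23. The parts of GC content and length in the differences between sirtuins or compartments were not tested beyond these adjustments.

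Within a library, shares and ratios of the sirtuins do not depend on any scaling that multiplies all genes alike. The summed level of SIRT2 to SIRT7 came to 126.6 and 119.9 FPKM in the Control libraries, against 153.9 and 139.6 FPKM after the knockdown. SIRT1 made up 7.63% and 7.88% of the summed level of all 7 sirtuins in Control and 1.16% and 1.45% in siSIRT1. With SIRT1 included the sums were 137.1 and 130.1 FPKM in Control against 155.7 and 141.7 FPKM in siSIRT1. With the values as deposited, the summed sirtuin transcript level was thus no lower in the knockdown. Unlike the shares, these sums depend on the scaling, and they were not computed after rescaling.

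By compartment, the nuclear members SIRT6 and SIRT7 held 25.5% and 24.7% of the SIRT2 to SIRT7 sum in Control and 29.1% and 28.1% in siSIRT1. SIRT2, the cytosolic member, held 51.3% and 51.9% in the Control libraries, against 53.2% and 53.0% after the knockdown. The mitochondrial members together held 23.2% and 23.5% without the knockdown, against 17.8% and 18.9% with it. The groups did not overlap in any of these shares, and because shares sum to the whole, a gain in one compartment requires a loss in another. With 2 libraries a group such separation is common. Among single genes tested, 43.8% had both siSIRT1 libraries above both Control libraries and 25.2% had both below. In FPKM, the mitochondrial sum was 28.7 ± 0.891 (SD, n = 2) in Control and 26.9 ± 0.643 in siSIRT1, while the nuclear sum was 30.9 ± 1.87 and 41.9 ± 3.9 and the cytosolic level 63.6 ± 2.02 and 77.9 ± 5.53. The nuclear share followed SIRT7, which held 18.3% and 18.4% in Control and 21.8% and 21.7% in siSIRT1, whereas the share of SIRT6 overlapped between groups.

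**Figure D4:**
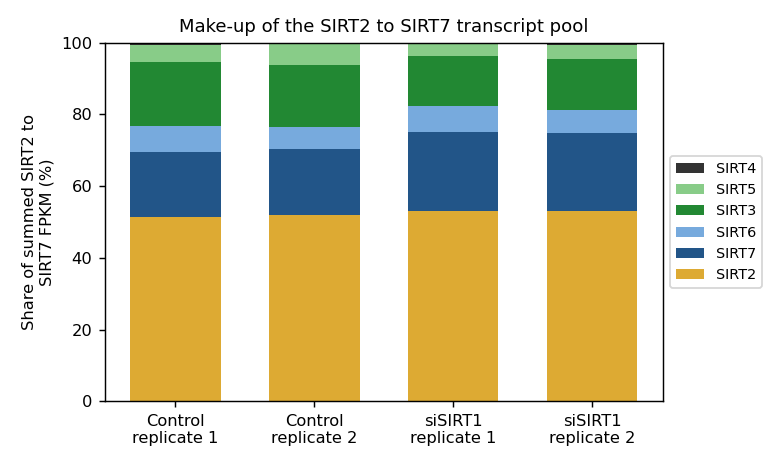
Share (%) of the summed SIRT2 to SIRT7 FPKM held by each sirtuin in each library, as stacked bars with SIRT2 (cytosol, yellow) at the base, SIRT7 and SIRT6 (nucleus, blue) above it, and SIRT3, SIRT5 and SIRT4 (mitochondria, green and black) on top. The mitochondrial part shrinks from 23.2% and 23.5% in Control to 17.8% and 18.9% in siSIRT1, and SIRT7 widens from about 18% to 22%.

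Ratios were compared for the 10 pairs among the 5 sirtuins tested. The log2 ratio of SIRT7 to SIRT3, which were level with each other in Control, went from 0.03 and 0.10 in the Control libraries to 0.65 and 0.61 after the knockdown. The log2 ratio of SIRT2 to SIRT3 likewise went from 1.52 and 1.59 to 1.94 and 1.90. SIRT7 also gained on SIRT2, from -1.48 and -1.5 to -1.29 in both siSIRT1 libraries. The groups overlapped for SIRT2 to SIRT6 (means of 2.95 and 2.96) and for SIRT3 to SIRT5 (means of 1.73 and 1.88). The 10 ratios reuse the same 5 genes and are not independent. With 2 libraries a group, the exact two-sided permutation test cannot give a p under 0.333, so no ratio could pass a test at 0.05.

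The zinc-dependent deacetylases HDAC1 to HDAC11 share the deacetylation reaction with sirtuins but do not use NAD+. Of these 11, 4 were called higher and 2 lower, beside 24% and 13.1% of all genes tested. The median log2 fold change was 0.12, against 0.07 over all genes, and lay between 0.01 and 0.06 under the 7 scalings and adjustments and at 0.08 without siSIRT1 replicate 2. HDAC11 (log2 fold change 0.47), HDAC1 (0.43) and HDAC3 (0.35) had the largest rises, with HDAC8 (0.35) the fourth. HDAC6, the other cytosolic tubulin deacetylase, fell by 0.55 and HDAC5, a class IIa deacetylase, fell by 0.47, both on the log2 scale. The Control libraries held HDAC6 at 33.06 and 33.35 FPKM, and the siSIRT1 libraries at 22.09 and 22.58 FPKM. The log2 ratio of SIRT2 to HDAC6 was 0.98 and 0.90 without the knockdown and 1.89 and 1.71 with it. Across the 7 scalings and adjustments, 1 to 4 of the HDACs were called higher and 2 or 3 lower, and without Control replicate 1 the calls in all numbered 3.

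**Figure D5:**
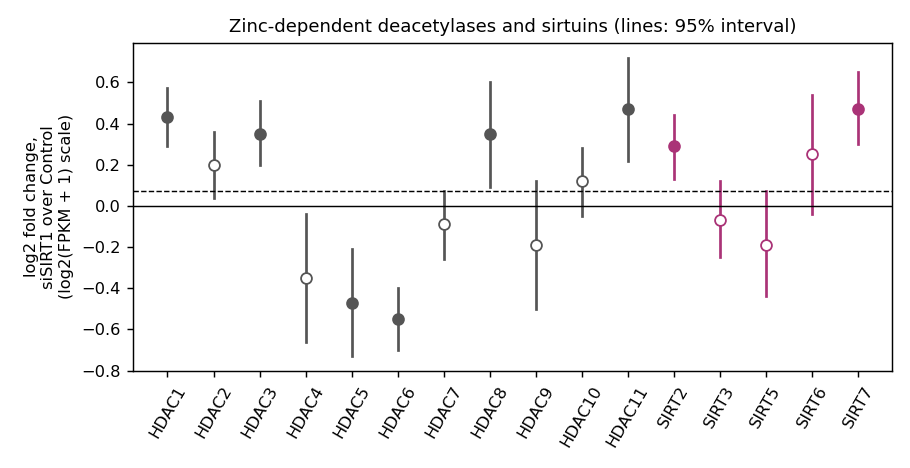
log2 fold change (siSIRT1 over Control) with its 95% interval for the zinc-dependent deacetylases HDAC1 to HDAC11 (grey) and the 5 sirtuins tested (purple); filled circles are called and open circles are not, the solid line is 0 and the dashed line the median of all genes. HDAC1, HDAC3, HDAC8, HDAC11, SIRT2 and SIRT7 are filled above 0, and HDAC5 and HDAC6 are filled below 0.

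Partners and substrates of the sirtuins were counted by compartment. Of 17 nuclear genes tied to SIRT6 or SIRT7, 4 were called, all higher, close to the 24% of all genes tested that were called higher. The median log2 fold change was -0.00, against 0.07 over all genes, and lay between -0.10 and -0.01 under the 7 scalings and adjustments. The largest of these were POLR1E (0.29), an RNA polymerase I subunit that SIRT7 deacetylates, FBL (0.29), the nucleolar RNA methyltransferase fibrillarin, and PARP1 (0.28), a DNA damage sensor. Under the 7 scalings and adjustments 0 to 3 of the 17 were called higher and 0 or 1 lower. Without Control replicate 1 no gene of the 17 was called, and without Control replicate 2 the calls numbered 1.

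Of 14 SIRT2 partners tested, 6 were called higher and 2 lower, beside 24% and 13.1% of all genes tested. The median log2 fold change was 0.17, against 0.07 over all genes, and lay between 0.06 and 0.10 under the 7 scalings and adjustments. The glycolytic enzyme PGAM1 rose by 0.65 on the log2 scale and TUBA1B, an alpha-tubulin, by 0.43. HDAC6 belongs to this list too, and KMT5A, a histone H4 lysine 20 methyltransferase, fell by 0.37 on the log2 scale. PGAM1 and the alpha-tubulins have near-identical copies elsewhere in the genome, so their values are uncertain. Across the 7 scalings and adjustments 4 to 6 of the 14 were called higher and 2 lower, and without either Control replicate the calls numbered 3.

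Of 22 mitochondrial partners tested, 7 were called higher and 2 lower, near the 37.1% of all genes called in either direction. The median log2 fold change was 0.12, against 0.07 over all genes, and lay between 0.01 and 0.06 under the 7 scalings and adjustments. PPIF, the cyclophilin D of the permeability transition pore and a SIRT3 substrate, was at 10.02 and 9.7 FPKM without the knockdown and at 25.91 and 22.03 FPKM with it. It had the largest change of the list, 1.2 on the log2 scale, and the groups did not overlap (adjusted p = 5.88e-05 by limma). ACSS1, the mitochondrial acetyl-CoA synthetase that SIRT3 activates, rose by 0.80, and ALDH2, an aldehyde dehydrogenase, by 0.51. GLUD1, the glutamate dehydrogenase that SIRT4 restrains, fell by 0.64 on the log2 scale, with close copies in the genome that make its value uncertain, and the protease LONP1 fell by 0.20. Across the 7 scalings and adjustments 6 or 7 were called higher and 2 to 4 lower, and without Control replicate 2 the calls numbered 5.

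All sirtuins draw on NAD+. Of 5 genes of NAD+ supply tested, 2 were called, both lower, beside 13.1% of all genes tested. The median log2 fold change was -0.33, against 0.07 over all genes, and moved to -0.19 without siSIRT1 replicate 1. NAMPT, the rate-limiting enzyme of NAD+ salvage from nicotinamide, fell by 0.33 on the log2 scale, and NAPRT, which starts the route from nicotinic acid, fell by 0.37. Both were lower in each siSIRT1 library than in either Control library, as were 25.2% of all genes tested. NMRK1 (-0.34), NMNAT1 (0.05) and NADSYN1 (0.04) were not called. NMNAT2, NMNAT3 and NNMT averaged under 1 FPKM and were not tested. At these low levels, NMNAT2 and NNMT were higher in both siSIRT1 libraries and NMNAT3 overlapped between groups. These values are not read as more or less NAD+ supply. Under the 7 scalings and adjustments 2 or 3 of the 5 were called lower and 0 higher, and without either Control replicate, or without siSIRT1 replicate 1, the calls numbered 1.

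The protein-coding genes next to each sirtuin were read as well, since 3 of the sirtuins start close to a gene on the opposite strand. SIRT2 starts 351 bases from NFKBIB on the opposite strand (GRCh37), and NFKBIB had a log2 fold change of 0.09 (adjusted p = 0.345 by limma). PCYT2 (0.11) and MAFG (-0.14), the neighbours of SIRT7, were not called, nor was RINL on the other side of SIRT2. SIRT3 starts 634 bases from PSMD13 (0.10, adjusted p = 0.219 by limma) and its 3′ end overlaps RIC8A (0.12, adjusted p = 0.158 by limma) on the other strand. Counting by strand is not stated, so reads in that overlap could belong to either gene. SIRT6 starts 126 bases from ANKRD24, which had a log2 fold change of 0.28 at 0.83 to 1.51 FPKM and was not called. Of all neighbours tested, PXN beside SIRT4 was the one called, at a log2 fold change of -0.51 (adjusted p = 0.000255 by limma).

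By the Euclidean distance of log2 deviations over the 4 libraries, the genes most like SIRT7 were HS1BP3, DPH7 and ACOT9, at log2 fold changes of 0.47 to 0.48. Those most like SIRT2 were NCKAP5L, PSMB6 and COPZ1, at 0.29 to 0.30. With 4 libraries such likeness is common: 289 genes lay within a distance of 0.1 of SIRT7 and 548 within that distance of SIRT2.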

How the data were processed

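The deposited tables give FPKM per gene, computed by the authors, for 2 Control and 2 siSIRT1 libraries. The submitters' processing notes name Bowtie2, HISAT, RSEM and ChIPseeker without versions or roles. The genome build of the RNA-seq is not given in the sources used here. Counts are not part of these tables, so no count test was run. Depth was estimated from the steps of low FPKM values in single-exon genes, with 80 bases taken off each length, and intervals from it cover counting error only.

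Tables were joined on gene identifiers, of which 16846 of 16878 matched a RefSeq symbol. Genes averaging 1 FPKM or more over the 4 libraries were tested on log2(FPKM + 1) with limma 3.58.1 in R 4.3.3 (eBayes with a mean-variance trend, two-sided, Benjamini-Hochberg adjustment). Fold changes on this scale understate those of low genes. The fit was checked on generated data with known changes. Alternatives were other scalings, adjustments for GC content and length (lowess, span 0.3, 11995 genes), a pseudocount of 0.1, no filter, no trend, a replicate block and each library left out. Positions come from GENCODE release 44 mapped to GRCh37.

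The members and gene lists were chosen with earlier results of these data known. Named were the sirtuins, up to 3 called genes a list and direction by size of change, and the nearest coding neighbours. The 3 genes most like each called sirtuin, and GAPDH, were named too. HDAC8, ACTB and the NAD+ supply genes not called or not tested lie outside this rule. They were added after their values were seen. One gene that this rule names is not reported here.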

Additional observations from a re-analysis of the deposited data

How the results depend on the processing

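SIRT1 stayed lower and called under all 17 alternatives, and SIRT7 higher and called. None of the sirtuins tested changed direction under these alternatives, which did not include scaling to ACTB. The log2 fold change of SIRT3 was only -0.001 without Control replicate 1. SIRT4 could be fitted only without the filter. The number of members called was 2 under 12 alternatives and 1 under 5, namely median-of-ratios scaling, GAPDH scaling, no mean-variance trend (adjusted p of SIRT2 0.0538 by limma) and without either Control replicate. Leaving out 1 library gave 1 to 2 members called, 2691 (without Control replicate 2) to 4608 genes called in all, against 4521 with all libraries, and 14 (without either Control replicate) to 32 calls over the deacetylase and partner lists, against 29 with HDAC6 counted in both of its lists. Same-numbered libraries of the groups share only a number: their deviations correlated at r = 0.123 across genes, and with 2 pairs this does not show pairing. With the replicate block 5393 genes and 2 members were called, and SIRT6 had an adjusted p of 0.0525 by limma. SIRT4, at 3 to 12 estimated reads, is limited by depth.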
